A study of Drosophila melanogaster with 6 samples.

Results

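Astrocytes of the fly brain carry adhesion proteins through which they touch axons, synapses and other glia. This account follows 10 genes, of 16666 symbols in the deposited table, that encode immunoglobulin-family adhesion molecules and proteins that bind them or work beside them: Ama, Nrt, bdl, tutl, kirre, rst, hbs, Nrg, Cont and Nrx-IV. The genes were picked by symbol, with their stage values already known, so their differences between stages are given as a description, without p-values, and support nothing. RNA was measured in astrocytes from adult brains (4 libraries) and from brains of L3 larvae, the last larval instar, (2 libraries) of Drosophila melanogaster reared at 25 °C. All animals carried UAS-mCD8::GFP, a membrane reporter, Alrm-Gal4, which drives expression under control of the astrocyte gene alrm, and UAS-RedStinger, a red reporter by which cells were sorted in pools of 1000. Each library therefore holds whatever cells the driver marked, and enzyme treatment of the brains lasted 30 min for adults and 15 min for L3. No age or sex of the animals is given in the labels. Nothing in the labels says that the libraries came from separate groups of animals, so the spread between them may be partly technical. The stages stand for astrocytes after neuronal remodelling (adult) and before it (L3), in a series on how astrocyte infiltration helps axons to separate.

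Ama (amalgam) is a secreted protein with immunoglobulin domains, and it binds Nrt (neurotactin), a membrane protein whose outer part resembles a cholinesterase. Together they let cells adhere to each other, as shown with cultured fly cells. bdl (borderless) and tutl (turtle) encode related transmembrane proteins of the immunoglobulin superfamily that act in the wiring of the fly visual system. kirre and rst encode closely related receptors of the irre cell recognition module, and hbs encodes one of their binding partners on the opposite cell. Nrg (neuroglian, the fly L1 protein), Cont (contactin) and Nrx-IV (neurexin IV) form an adhesion complex of septate junctions, the diffusion barriers of fly glia and epithelia. Nrt and Nrx-IV are not themselves immunoglobulin-domain proteins.

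Levels are given as CPM, a gene's deposited count relative to the total of its library. The adult libraries held 745129 to 1287871 counts and 8542 to 10403 detected genes, and the L3 libraries held 1923097 and 2641671 counts and 11687 to 11988 detected genes. Correlations of log2(CPM + 1) were 0.708 to 0.781 between adult libraries, 0.866 between the L3 libraries and 0.554 to 0.661 between stages. alrm, the astrocyte gene behind the driver, averaged 1305 ± 264 CPM in adult libraries (SD, n = 4) and 1103 ± 343 CPM in L3 libraries (SD, n = 2), and the glial transcription factor gene repo averaged 632 and 227 CPM in adult and L3 libraries, with the counts of its neighbour CG7156. The 7 astrocyte markers together summed to 9265 to 14038 CPM in adult libraries and 3382 to 5282 CPM in L3 libraries, with 5 called higher in adults, 1 (wun2) called lower and alrm not called. The astrocyte label thus had its markers in all libraries, at levels that differed between stages, and markers of other cells were present too. The 11 neuron markers summed to 349 to 509 CPM in adult libraries and 167 to 267 CPM in L3 libraries, and none was at 0 throughout a stage. The 5 hemocyte markers summed to 909 to 1555 CPM in adult libraries and 41.6 to 47.3 CPM in L3 libraries, most of it Hml, at 1278 ± 297 CPM in adult libraries and 32.3 ± 11.1 CPM in L3 libraries. Hml, a blood cell gene, was the 1 of 2 tested hemocyte genes called higher in adults (edgeR adjusted p = 8.35e-08). Of the other hemocyte markers, NimC1 and He averaged 1.76 and 1.37 CPM in adult libraries and 1.54 CPM each in L3 libraries. These values rest on 9 and 7 counts in adult libraries and 7 each in L3 libraries. Pxn, at 27.1 CPM in adult and 9.1 CPM in L3 libraries, overlapped between stages, and srp had counts in adult library 3 alone. The 5 neuroblast markers summed to 15.9 to 51 CPM in adult libraries, where ase, mira and wor were at 0 throughout, and to 82.2 to 89.7 CPM in L3 libraries. The 6 surface glia markers summed to 83.3 to 134 CPM in adult libraries, where Mdr65 and Cyp6a20 were at 0, and to 92.6 to 119 CPM in L3 libraries. The surface glia sums overlapped between stages, and in adults they came mostly from Tret1-1, at 62.4 CPM on average, while the neuroblast sums came mostly from insc, at 31.8 CPM with the counts of sktl. The 4 cortex glia markers summed to 418 to 503 CPM in adult libraries and 210 to 316 CPM in L3 libraries, and the 3 ensheathing glia markers to 132 to 194 and 63.6 to 133 CPM. The 5 photoreceptor markers summed to 38.9 to 130 CPM in adult libraries and 25 to 38 CPM in L3 libraries, with trp and Arr1 at 0 in both stages, and the 5 muscle markers to 2.19 to 50.9 and 8.33 to 14 CPM, with Mhc and sls at 0 in adult libraries. What part the shift of the astrocyte markers and the other cells have in the values below was not tested.

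Of the 10 genes, 6 had counts of their own and 4 had the counts of a neighbouring gene. Nrg and IntS4, an Integrator complex subunit gene, had equal counts in every library. Nrt and CG13025 (now mus302) differed by 0.293% of their summed counts, Nrx-IV and CG9760 by 0.316%, and Cont and CG11739 (now Sfxn1-3, a sideroflexin gene) by 0.113%. In the BDGP6 annotation Nrt, Nrg and Nrx-IV each lie tail to tail with that neighbour, on opposite strands, and the nearest annotated ends of the transcripts are 16, 69 and 62 bases apart. Cont lies on the same strand as CG11739, 95 bases beyond its end, and the ends of their transcripts are 5808 bases apart. Whether the counting used strand is not given in the sources used here, so the values of Nrt, Nrg and Nrx-IV could belong to either partner. Strand cannot separate Cont from CG11739, and its values too could belong to either. Genes far away in the table also had nearly the same counts: Jon66Ci, a Jonah family serine protease gene, differed from Nrt by 1.19% of their sum, and CG8223 from Cont by 0.677%. Ama, bdl, tutl, kirre, rst and hbs had no such neighbour, although rst lies inside kirre on the opposite strand, and rst and hbs had too few counts for the comparison.

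**Figure D1:**
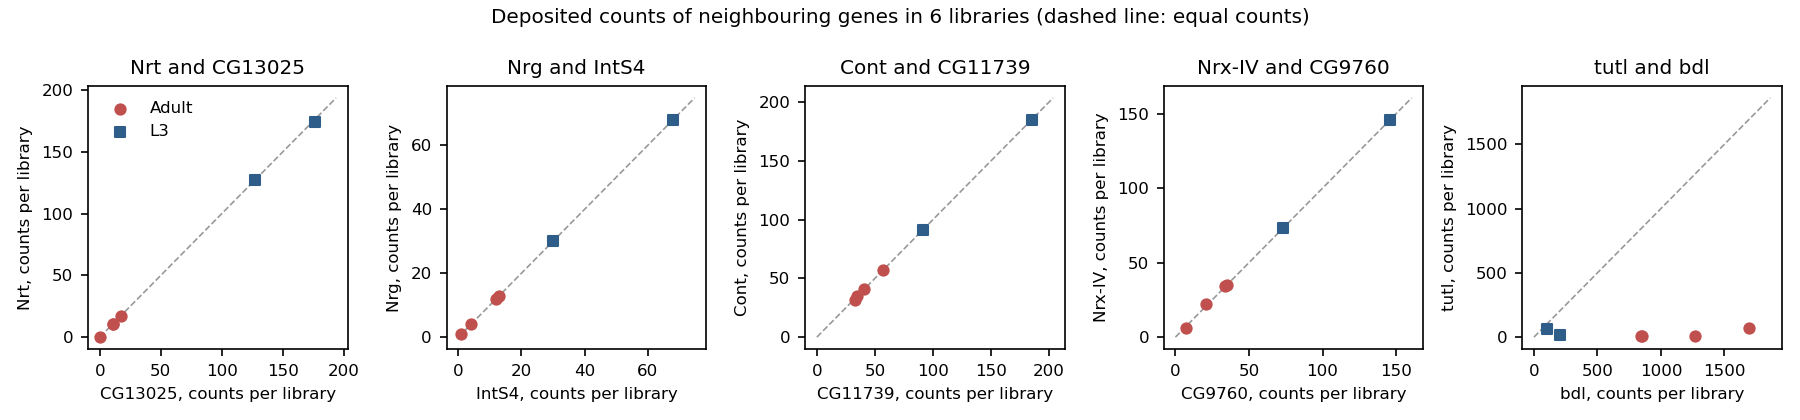
Deposited counts of 4 genes and their neighbours, with tutl and bdl as a pair of neighbours whose counts differ; each point is a library (circles adult, squares L3) and the dashed line marks equal counts. The points of Nrt, Nrg, Cont and Nrx-IV lie on the line, and those of tutl and bdl do not.

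Ama had counts in both larval libraries and in none of the adult libraries. It had 0 counts in all 4 adult libraries, against 1812 and 1382 counts, or 686 and 719 CPM, in L3 libraries. The L3 libraries differed by 3.29% (coefficient of variation), where counting error alone gives 2.53%. With a floor of 3 counts over the adult libraries together, equal to 0.724 CPM, the adult level was at least 969.9-fold lower. Leaving out single libraries moved this bound between 668.4 and 992.5. In all, 1888 genes had counts in L3 and none in any adult library, and 10 of them averaged at least 50 CPM in L3, with Ama the highest of them. In the annotation Ama has 3 transcripts with 1 common end and overlaps no other protein-coding gene, and no gene within 10 rows of it in the table had more than 143 counts in any library.

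Nrt, the membrane partner of Ama, was also lower in adults but was still detected in 3 of the 4 libraries. It had 14.2, 0, 12.1 and 8.54 CPM in adult libraries 1 to 4, against 65.9 and 66 CPM in L3 libraries. The stages did not overlap, and adult library 2, the shallowest, had no count, with a floor of 4.03 CPM. The log2 fold change was -2.84 (SE 0.62), on 39 adult and 301 L3 counts that could also be those of CG13025. Across left-out libraries it lay between -3.16 and -2.53. The neuroblast markers summed to at most 51 CPM in adult libraries and at least 82.2 CPM in L3 libraries. insc, the most abundant, had 15.9 to 51 CPM in adult libraries and 45 and 65 CPM in L3 libraries, so its stages overlapped. Its counts were also those of sktl. mira had 0 CPM in adult libraries and 22.7 and 7.8 CPM in L3 libraries 1 and 2. Of the 5 markers 2 were tested and 0 called, and their part in the differences of Ama and Nrt was not tested.

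bdl was higher in every adult library than in either larval library. It had 1056, 1131, 932 and 1313 CPM in adult libraries 1 to 4, against 78.4 and 51.5 CPM in L3 libraries. The adult libraries spread by 14.4% around their mean of 1108 CPM, more than the 3.01% that counting error gives. The log2 fold change was 4.02 (SE 0.41), a fitted ratio of 16.2, and it lay between 3.64 and 4.57 with single libraries left out. In the annotation bdl has a single transcript and begins 772 bases beyond the end of tutl, on the same strand.

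tutl, which encodes a related protein and is the neighbour of bdl, showed no common direction. It had 5.01, 14.8, 7.67 and 56.7 CPM in adult libraries 1 to 4, against 6.44 and 34.8 CPM in L3 libraries. Adult library 4 and L3 library 2 stood above the others, and the stages overlapped. The adult libraries spread by 115% around a mean of 21 CPM and the L3 libraries by 97.3% around 20.6 CPM, where counting error gives 20.8% and 15.5%. The log2 fold change of 0.26 (SE 0.79) became -1.16 without adult library 4, -0.45 without L3 library 1 and 1.65 without L3 library 2. A difference between stages was therefore not detectable for tutl in these libraries.

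**Figure D2:**
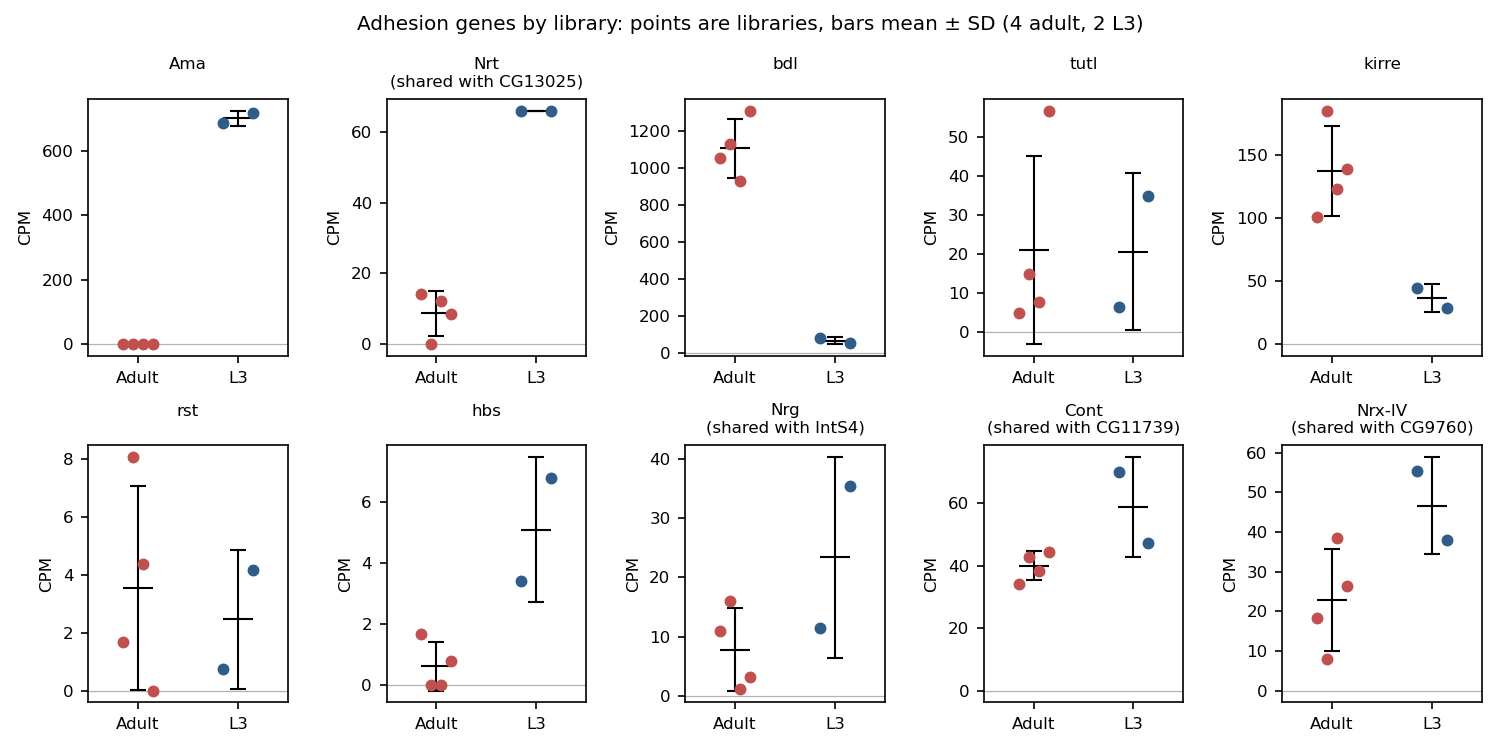
CPM of the 10 genes in each library, with adult libraries left and L3 libraries right; points are libraries, bars the mean and SD, and each panel has its own linear axis. All adult points of bdl and kirre lie above both L3 points, those of Ama, Nrt, Cont and hbs lie below them, and the stages overlap for tutl, rst, Nrg and Nrx-IV.

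Among kirre, rst and hbs, kirre was the one with enough counts to be followed. It had 101, 185, 123 and 139 CPM in adult libraries 1 to 4, against 44.3 and 28.6 CPM in L3 libraries. The stages did not overlap, with a log2 fold change of 1.80 (SE 0.44) and a range of 1.42 to 2.38 over left-out libraries. kirre is a very long gene that overlaps 22 other protein-coding genes in the annotation, rst among them, so part of its counts could be theirs.

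rst was near the limit of detection in both stages. It had 2, 6, 4 and 0 counts in adult libraries 1 to 4, against 2 and 8 counts in L3 libraries. The ratio of pooled counts, adult over L3, was 1.32, with a 95% counting interval of 0.524 to 3.42, so neither direction can be told at this depth. hbs, which encodes a partner of kirre and rst, had 2, 0, 0 and 1 counts in adult libraries, against 9 and 13 counts in L3 libraries. Its pooled ratio was 0.15, with a counting interval of 0.0288 to 0.5. The stages did not overlap for hbs, which had 0.776 and 1.67 CPM in the 2 adult libraries with a count and 3.41 and 6.76 CPM in L3 libraries. Both genes failed the filter on low counts, so 8 of the 10 entered the fit.

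The 3 genes of the septate junction complex were all lower on average in adults. None of them was called at an adjusted p under 0.05 with edgeR. Over all tested genes 9.65% were called higher and 13.1% lower, so the lack of a call is common. Cont had 34.2, 42.9, 38.4 and 44.3 CPM in adult libraries 1 to 4, against 70 and 47.3 CPM in L3 libraries. The stages did not overlap, and the adult libraries spread by 11.5%, within the 16% that counting error gives. Its log2 fold change was -0.63 (SE 0.47), and it was -0.10 without L3 library 1, the library with the higher value. Nrx-IV had 18.4, 8.05, 38.4 and 26.4 CPM in adult libraries, against 55.3 and 38 CPM in L3 libraries, so that adult library 3 reached the lower L3 library. Its log2 fold change was -1.07 (SE 0.56), with a range of -1.42 to -0.56 over left-out libraries. Nrg had 10.9, 16.1, 1.1 and 3.11 CPM in adult libraries, against 11.4 and 35.4 CPM in L3 libraries, and the stages overlapped. Its log2 fold change was -1.61 (SE 0.82), on 30 adult and 98 L3 counts, with a range of -2.12 to -0.81. All 3 genes had a neighbour's counts, and Nrg has 9 annotated transcripts with 5 different ends, which the table does not separate.

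**Figure D3:**
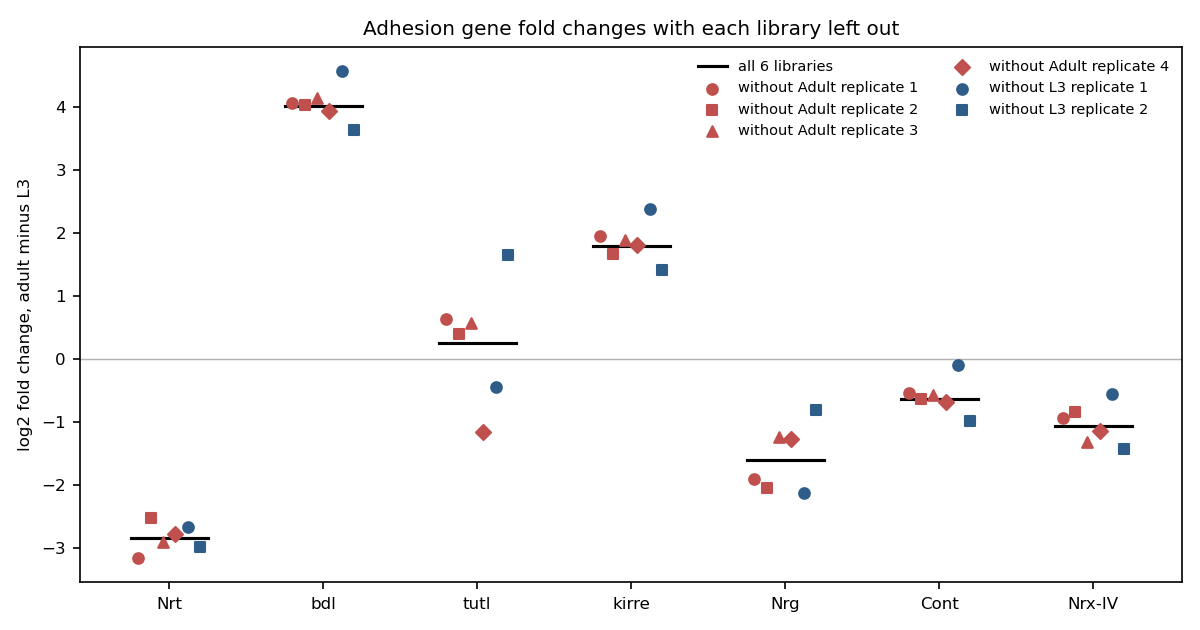
Log2 fold change (adult minus L3) of 7 genes with all 6 libraries (black line) and with each library left out in turn (red, adult; blue, L3). bdl, kirre and Nrt keep their sign in each of these 6 fits, from 3.64 to 4.57, 1.42 to 2.38 and -3.16 to -2.53, while tutl runs from -1.16 to 1.65.

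With edgeR's quasi-likelihood test on the whole table, adjusted over 9082 genes at 0.05, 2 of the 8 tested genes were higher in adults (bdl and kirre) and 2 lower (Ama and Nrt). Over all tested genes 9.65% were called higher and 13.1% lower. Without L3 library 2 fewer of the 8, and fewer of all tested genes, were called higher. Because the genes were chosen with this contrast known, these counts are no test of them and nothing is read from them. The adult libraries lay above both L3 libraries in 2 of the 10 genes and below them in 4, against 14.8% and 22.9% of tested genes. The 10 include rst and hbs, which were not tested, and hbs is among the 4. Higher calls were 42.4% of all calls with edgeR and 53.0% with DESeq2. In bulk samples such as these, fewer cells of a type and less RNA per cell cannot be told apart.

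Other immunoglobulin-family adhesion genes moved in both directions. This list and those that follow were also chosen with earlier results of these data known. Their shares, calls and p-values are therefore a description and no independent test. Of 29 such genes outside the 10, 20 could be tested, and 2 rose and 5 fell in adults, or 10% and 25%, beside 9.65% and 13.1% of all tested genes. Their median log2 fold change was -0.44, against -0.14 over all tested genes. kek1, a leucine-rich repeat and immunoglobulin protein gene, fell to 8.89 ± 8.15 CPM in adult libraries, against 114 ± 19.8 CPM in L3 libraries (log2 fold change -3.62, SE 0.57, adjusted p = 5.45e-05). Dscam2, a homophilic receptor gene of the Down syndrome cell adhesion family, fell to 86.8 ± 68.8 CPM, against 354 ± 47 CPM in L3 (log2 fold change -2.09, SE 0.46, adjusted p = 0.00222), with the counts of CG8620. Leaving out L3 library 1 ended the Dscam2 call (adjusted p = 0.0573).

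sns encodes a partner of kirre and rst in myoblast fusion, and in adults it had counts in 1 library alone. It had 16.7 CPM in adult library 1 and 0 in the other 3, against 26.5 and 68.6 CPM in L3 libraries (log2 fold change -3.24, SE 0.91, adjusted p = 0.011), and it did not pass without L3 library 2 (adjusted p = 0.122) or with DESeq2 (adjusted p = 0.595). Fas3, a homophilic adhesion molecule gene of septate junctions and axons, had 1 count in adult libraries, against 31 and 28 counts in L3 libraries (adjusted p = 0.0231). Its pooled ratio, adult over L3, was 0.0187, with a counting interval of 0.000465 to 0.108. Fas3 did not pass when L3 library 1, L3 library 2 or adult library 4 was left out (adjusted p = 0.129, 0.0955 and 0.0569), or with DESeq2 (adjusted p = 0.071). hig, which encodes a secreted immunoglobulin protein of the synaptic cleft, rose to 33.9 ± 11.8 CPM in adult libraries, against 2.88 ± 0.332 CPM in L3 libraries (log2 fold change 3.54, SE 0.85, adjusted p = 0.00412), and this was lost without L3 library 1 (adjusted p = 0.0697). CG15630, now named fipi, rose to 68.4 CPM, against 17.6 CPM in L3 (adjusted p = 0.0458), with the counts of CG15631 and with adult libraries between 18.6 and 151 CPM. The CG15630 call ended when adult library 2, adult library 4, L3 library 1 or L3 library 2 was left out (adjusted p = 0.0677, 0.317, 0.099 and 0.265), and with DESeq2 (adjusted p = 0.124). Fewer genes of the list were called without L3 library 1 or without L3 library 2, and the same held over all tested genes. Of the 6 genes named here, kek1 was called in every fit that tested it, and the stricter filter removed it.

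**Figure D4:**
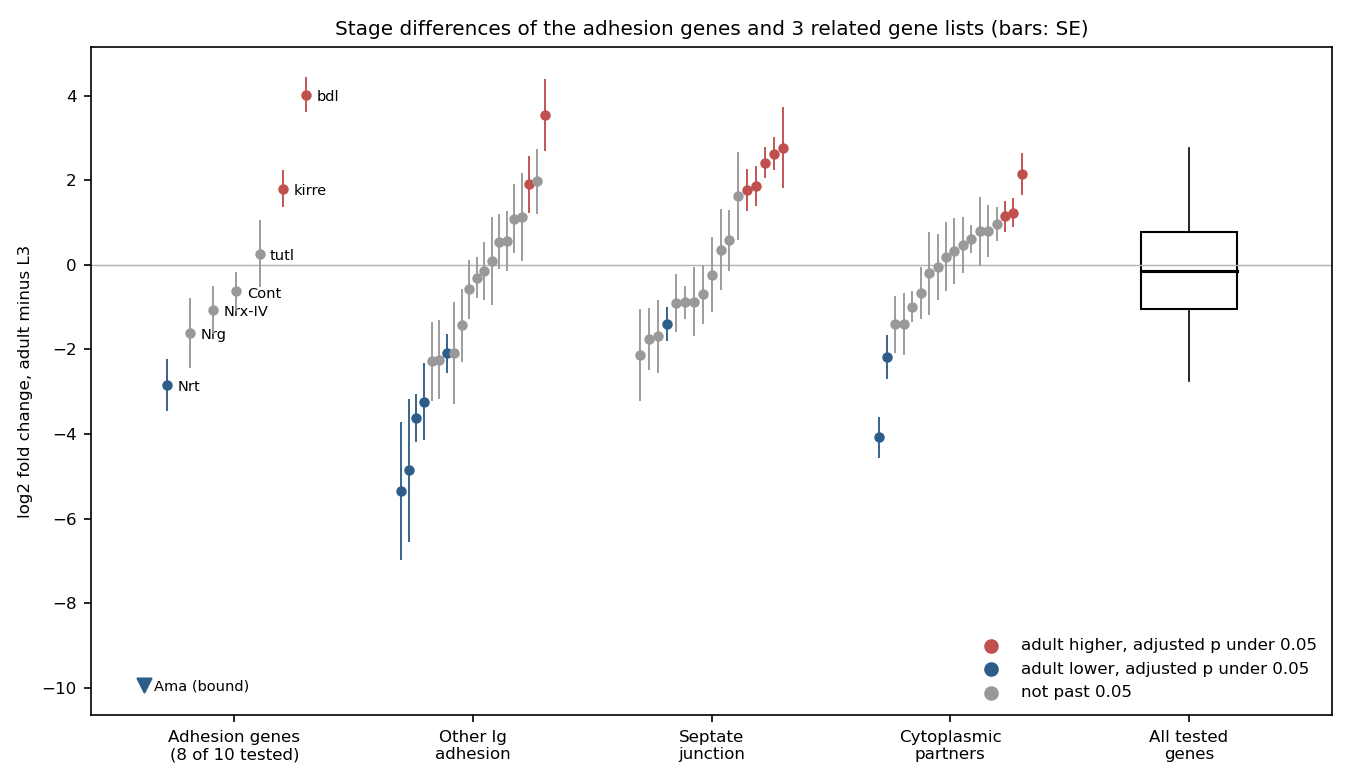
Log2 fold change (adult minus L3, with SE) of the 8 tested adhesion genes and of the tested genes of 3 related lists, red where adults were higher and blue where they were lower at an adjusted p under 0.05; the box gives the quartiles of all 9082 tested genes and its whiskers the 5th and 95th percentiles. Ama is drawn at its bound of at least 969.9-fold lower, and the lists' medians are -0.44, -0.23 and 0.26 from left to right.

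Septate junction genes that work with Nrg, Cont and Nrx-IV moved in both directions. Of 19 genes 17 were tested, and 5 rose and 1 fell, or 29.4% and 5.88%, beside 9.65% and 13.1% of all tested genes. Their median log2 fold change was -0.23, against -0.14 over all tested genes. In all adult libraries 5 of the 19 genes lay above both L3 libraries and 5 below, beside 14.8% and 22.9% of all tested genes. The 19 include genes that were not tested. sinu, a claudin-family gene, had 24552 ± 5343 CPM in adult libraries and 3967 ± 771 CPM in L3 libraries (log2 fold change 2.62, SE 0.39, adjusted p = 3.89e-05). Its counts were nearly those of Sucb and Msr-110 as well, among others, and could belong to any of them. nrv2, a sodium pump subunit gene that also marks glia, rose to 1915 ± 607 CPM, against 350 ± 19 CPM in L3 (log2 fold change 2.41, SE 0.37, adjusted p = 5.98e-05). The pump's catalytic subunit gene Atpalpha rose to 489 ± 205 CPM, against 154 ± 154 CPM in L3 (adjusted p = 0.0126), with overlap of the stages, and the polarity gene scrib rose to 89.9 ± 25.6 CPM, against 25.2 ± 7.77 CPM (adjusted p = 0.00775). vari, whose product binds the inner part of Nrx-IV, fell to 64.1 ± 23.1 CPM, against 156 ± 24.2 CPM in L3 (log2 fold change -1.39, SE 0.40, adjusted p = 0.0161), with the counts of Pomp. Without L3 library 1 fewer genes of the list were called, as over all tested genes, and the calls of Atpalpha, scrib and vari were lost. The vari call also ended without adult library 1 or 4 (adjusted p = 0.0639 and 0.0574) and with DESeq2 (adjusted p = 0.0689), whereas sinu and nrv2 were called in every fit that tested them.

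Genes whose products act inside the cell with Nrt, Nrg or the kirre family also moved in both directions. All 18 were tested, and 3 rose and 2 fell, or 16.7% and 11.1%, beside 9.65% and 13.1% of all tested genes. Their median log2 fold change was 0.26, against -0.14 over all tested genes. fax, which interacts genetically with Abl in fly axons, fell to 66.3 ± 79.4 CPM in adult libraries, against 1212 ± 469 CPM in L3 libraries (log2 fold change -4.08, SE 0.49, adjusted p = 2.96e-06). Adult library 4 had 185 CPM of fax and the other adult libraries 15 to 33.6 CPM, all below the L3 libraries at 880 and 1543 CPM. pyd, a junction scaffold gene with the counts of CG8379, fell to 18.9 ± 7.63 CPM, against 79 ± 5.04 CPM in L3 (log2 fold change -2.19, SE 0.52, adjusted p = 0.00371). The adaptor gene Dab rose to 128 ± 58.5 CPM, against 28.4 ± 6.94 CPM in L3 (log2 fold change 2.15, SE 0.50, adjusted p = 0.0033), with the counts of CG13026. The spectrin gene beta-Spec rose to 635 ± 182 CPM, against 266 ± 35 CPM in L3 (adjusted p = 0.0126), with the counts of CG12990, and the tyrosine kinase gene Abl to 885 ± 356 CPM, against 393 ± 52.1 CPM (adjusted p = 0.027), with the counts of Mo25. Without L3 library 1 fewer genes of the list were called, as over all tested genes, and fax was still called lower, as in every fit that tested it. Without L3 library 2 Dab alone stayed among the rises of the list, and over all tested genes fewer rises were called too. Abl was also lost without adult library 2 or 4 (adjusted p = 0.0945 and 0.0569).

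Genes whose values ran most like those of bdl, Ama and kirre were sought over the 6 libraries, by the root mean square difference of centred log2(CPM + 1). For bdl they were Usp16-45 and CG15209, each at 0.17, with 1201 ± 122 and 1204 ± 122 CPM in adult libraries and 81.7 ± 28 and 82.1 ± 27.9 CPM in L3 libraries. CG15209 shared counts with CG32669. For kirre they were CG13585 and CG4622, each at 0.10, which shared counts and had 72.8 ± 22.2 CPM in adult libraries and 21.2 ± 6.44 CPM in L3 libraries. For Ama they were Obp99a and ppk30, each at 0.73, which shared counts and had 0.194 ± 0.388 CPM in adult libraries and 374 ± 192 CPM in L3 libraries. What such likeness reflects, with 2 stages of 4 and 2 libraries, was not tested.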

How the data were processed

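The authors deposited 1 table of whole-number counts per gene symbol for 6 libraries, without normalization. Brains were digested at 29 °C for 30 min (adult) or 15 min (L3) and libraries were made with a MARS-seq derivative, per the labels' protocols, so digestion time differed with stage. bcl2fastq, HISAT 0.1.5 and HOMER are named per the submitters' processing notes. Not given in the sources used here are the build, the annotation, the strand setting and the use of molecular identifiers, so counting intervals and floors leave out any error from amplification. The 6 columns were matched to samples by title, with 0 others present.

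Stages were compared with the quasi-likelihood test of edgeR 4.0.16, run in R 4.3.3 (TMM, filterByExpr, stage as the single term, Benjamini-Hochberg over all tested genes at 0.05). The SE is the absolute log2 fold change divided by the square root of F, so it is approximate. DESeq2 1.42.0 and limma 3.58.1 (voom) were alternatives, and tests were checked on simulated data. Neighbours were taken to share counts if they lay at most 10 rows apart, had 30 counts or more and differed by less than 5% of their sum. Distant genes needed 200 counts each, a chi-square under 0.3 and the same 5%. Orientation and transcript ends come from the Ensembl BDGP6 annotation; coordinates are not given because the table's build is not known. The genes and lists were chosen with earlier results of these data known. Named were the 10 genes, up to 4 called genes per direction and the most abundant gene of each list, genes sharing counts, and the 2 most alike genes (mean of at least 50 CPM) for 3 genes. The 5 list symbols absent from the table were matched by synonym.

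Shared replicate numbers (1 and 2) come from the titles. Nothing in the labels says that they mark a shared day, so the numbers were not taken to pair libraries. Deviations from the stage means of same-numbered libraries correlated at 0.012 and 0.024 over 9900 genes. With 2 L3 libraries their deviations mirror each other, so these values cannot exclude a shared day.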

Additional observations from a re-analysis of the deposited data

Results flagged for a closer look

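Among 25 genes checked over the 4 adult libraries, 3 had a library far from the others, where chance gives about 1 in 20 for values that vary continuously. That rate does not apply to sns and Fas3, since a gene with counts in 1 library alone always has a gap as large as its range. For sns, adult library 1 had 16.7 CPM and the other 3 had 0, so the gap was 1 times the range. For Fas3, adult library 2 had 1.34 CPM, which is 1 count, and the others had 0, again a gap of 1 times the range. For fax, adult library 4 had 185 CPM, against 15 to 33.6 CPM in the other 3, a gap of 0.891 of the range.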

How the results depend on the processing

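Calls of list members changed with the test and with single libraries, so the counts below are given as higher and lower. With edgeR's earlier quasi-likelihood method, 521 and 558 genes were called in all; of the 10 genes 1 was lower, of other immunoglobulin genes 1 and 1, and of septate junction genes 3 and 0 (1 lower at an unadjusted p under 0.05). With 1 row per group of shared counts, 542 and 716 genes were called and 1 other immunoglobulin gene was higher. DESeq2 called 681 genes lower, other immunoglobulin genes 1 and 2, and 0 septate junction genes lower (1 unadjusted). With limma-voom 0 other immunoglobulin genes were higher (1 unadjusted) and 2 septate junction genes lower. Without a filter, other immunoglobulin genes gave 1 and 3. With the stricter filter of 20 counts in 4 libraries, 706 genes were lower, other immunoglobulin genes gave 1 and 1, and 0 of the 4 adhesion genes still tested were lower (0 unadjusted), since Ama and Nrt were removed. At a threshold of 0.01, 512 and 648 genes were called, 1 and 2 other immunoglobulin genes, 3 and 0 septate junction genes (3 lower unadjusted) and 1 cytoplasmic partner higher.

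With a replicate block, fitted on libraries 1 and 2 of each stage (4 libraries), 306 and 186 genes were called, with 1 and 1 of the 10 genes, 0 and 2 other immunoglobulin genes (2 higher unadjusted), 2 and 0 septate junction genes (1 lower unadjusted) and 1 and 1 cytoplasmic partners. The same 4 libraries without the block gave 779 and 885 genes and 1 and 2 other immunoglobulin genes.

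With single libraries left out, all genes called ranged from 403 to 1020 higher and 509 to 1189 lower, the 10 genes from 1 to 2 higher and 2 to 2 lower, other immunoglobulin genes from 0 to 2 and 2 to 5, septate junction genes from 2 to 5 and 0 to 1, and cytoplasmic partners from 0 to 4 and 1 to 3. The low ends of the all-gene counts are those without L3 library 1. In that fit, and equally in the one without L3 library 2, the remaining L3 library was given the spread of the adult libraries. Where no value above shows it, the cause of these changes was not tested. Of the recomputed fold values of 8 of the 10 genes, 120 moved by less than the spread between libraries (for the bound of Ama, by under 1.5 times) and 5 by more, and 0 of the called ones changed sign. Scaling of the bound of Ama by TMM, chosen after seeing the data, gave 988.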
